A study of Homo sapiens with 12 samples.

Results

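The genes described here were 3 Notch receptors (NOTCH1, NOTCH2 and NOTCH3), 3 Notch ligands (DLL1, DLL3 and JAG1) and 4 basic helix-loop-helix effectors of the pathway (HES1, HES5, HES6 and HEY1). They were chosen by name, and the 10 genes were found among the 25718 genes of the count files by their gene symbol. Where a gene had several RefSeq transcripts, the transcript with the highest mean count stood for it. RNA was measured in 12 cultures of H9, an established human embryonic stem cell (hESC) line, in 4 groups of 3. All cultures had been transduced with a lentiviral vector, at a multiplicity of infection of 50, that carries either miR-10a or miR-10b together with GFP under a doxycycline-regulated promoter. All were then differentiated for 14 days towards ventral midbrain (MB). In the paper's protocol, SHH and the GSK3 inhibitor CT99021, which activates WNT signalling, were given early, together with SMAD inhibition, and ended before day 11. From day 11 the medium held BDNF, GDNF and ascorbic acid. In the doxycycline group of each vector, doxycycline (2 µg/ml) was present from day 11 to day 14, and the control samples were cells with the same vector kept without it. An effect of doxycycline itself therefore cannot be told apart from that of the microRNA, the cultures were a mixture that included non-transduced cells, and each vector was a separately transduced population. DAPT, an inhibitor of Notch receptor cleavage, belonged to the later terminal differentiation of this protocol and not to the 14 days measured here.

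Notch signalling passes between touching cells. A transmembrane ligand of the Delta-like or Jagged family binds a Notch receptor on the neighbouring cell, the receptor is cleaved, and its intracellular domain enters the nucleus, where it joins the DNA-binding protein RBPJ and switches on HES and HEY genes. In the embryonic neural tube, HES1 and HES5 repress proneural genes and keep progenitors dividing, whereas cells that express more ligand tend to become neurons, a process known as lateral inhibition.

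Total counts per sample were between 10545487 and 14165426, and within each vector the totals of the controls all exceeded those with doxycycline. Levels are in CPM, that is, counts per 1000000 counts of the library, and 3 counts corresponded to 0.212 to 0.284 CPM. Counts on the precursor gene MIR10A were 724 CPM (SD 10.8, n = 3) with doxycycline and 0.999 CPM (SD 0.363, n = 3) without it in miR-10a cultures. Those on MIR10B were 2619 CPM (SD 67.5, n = 3) and 3.55 CPM (SD 0.81, n = 3) in miR-10b cultures. Replicates of a group differed in their counts by a chi-square of 1.22 to 1.93 per degree of freedom in 10 pairs and of 3.17 and 4.11 in the 2 pairs that include doxycycline replicate 2 of miR-10b. Calls of the Notch genes that change without this library are given with and without it. For other named genes, only some of the changed calls are given. Nothing states that replicates were independent differentiations beyond their being triplicates, so that p-values measure the spread between these samples. Of 15 markers of neural progenitors, 12 had a mean of at least 1 CPM, and their summed level was 12080 to 14190 CPM. The 6 markers of mesendoderm summed to at most 1.33 CPM, those of neural crest to at most 8.49 CPM and the 7 endothelial markers to at most 10.4 CPM. Of the pluripotency markers, NANOG was at 0 in all samples and POU5F1 had 0 to 2 counts, but both have several transcripts and are measured poorly here. The markers with 1 transcript were split: ZFP42 had 0 to 1 counts, DPPA4 1186 to 1984 and LIN28A 10570 to 21290. OTX2 and LMX1B, which mark the ventral MB, also have several transcripts and were at or near 0.

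Both microRNAs have the same seed, the bases with which a microRNA pairs to its targets. The mature sequence of miR-10a-5p, shown because the members' transcripts were searched for matches to its seed, is given by RefSeq on GRCh38.p14 at chr17:48579904-48579926, minus strand, with the seed (bases 2 to 8) in capitals.
miR-10a-5p: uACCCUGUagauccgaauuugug
None of the 10 genes had an 8mer (ACAGGGTA) or 7mer (ACAGGGT or CAGGGTA) match in its longest annotated 3′ UTR (GENCODE 44 on GRCh37, the build of the counts). For comparison, 9267 tested genes have a 3′ UTR in this annotation, of which 21.1% had an 8mer or 7mer match and 2.6% an 8mer. The 3′ UTRs of the 10 genes were between 471 bases (DLL3) and 3756 bases (NOTCH2) long, against a median of 1554 bases over the tested genes. NOTCH1 and HEY1 each had 1 match to the shorter 6mer (CAGGGT), which 29.4% of the tested genes had. The match in NOTCH1 began at base 271 of a 3′ UTR of 1641 bases, at chr9:139390250-139390255 of GRCh37 on the minus strand, and is printed with 10 bases on each side and the match in capitals.
NOTCH1 6mer: ttctgagagcCAGGGTtttcctacgt
A match of letters is a description and not a measured site.

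HES1 and HES5 were read as transcriptional outputs of the pathway, so their promoters are shown. RefSeq promoters, 300 bases around the start of each gene, were matched for 7 of the 10 genes. They were searched on both strands for TGGGAA, the core of the motif that RBPJ binds, which 24.0% of 35116 promoters held. The promoters of HES1 (GRCh38.p14, chr3:194135898-194136197, plus strand) and HES5 (chr1:2530214-2530513, minus strand) each held 2 matches, in capitals below, and those of HES6, JAG1, NOTCH1, NOTCH2 and NOTCH3 held none.
HES1 promoter: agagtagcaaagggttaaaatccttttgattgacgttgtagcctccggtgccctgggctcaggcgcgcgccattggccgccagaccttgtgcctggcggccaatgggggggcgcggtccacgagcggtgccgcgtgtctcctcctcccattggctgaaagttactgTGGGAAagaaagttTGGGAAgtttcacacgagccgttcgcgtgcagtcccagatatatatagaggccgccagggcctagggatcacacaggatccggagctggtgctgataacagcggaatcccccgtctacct
HES5 promoter: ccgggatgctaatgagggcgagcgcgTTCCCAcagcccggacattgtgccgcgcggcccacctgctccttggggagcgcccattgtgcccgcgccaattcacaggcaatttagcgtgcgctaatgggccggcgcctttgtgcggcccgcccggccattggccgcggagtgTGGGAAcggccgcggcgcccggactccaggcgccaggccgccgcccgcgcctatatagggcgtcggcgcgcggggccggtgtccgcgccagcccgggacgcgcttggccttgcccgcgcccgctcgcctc
In HES1 the matches began at bases -84 and -70 from the start, both on the strand of the gene, and in HES5 at -80 on that strand and at -224 as the reverse complement TTCCCA. The longer form GTGGGAA, which contains TGGGAA and which 6.2% of promoters held, was found once in HES1 and on both occasions in HES5. CACGAG, the N box to which HES proteins themselves bind, began at -132 and -58 in HES1, at -4 in NOTCH2 and at -211 in NOTCH3, and 6.8% of promoters held it.

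Of the 10 genes, 9 passed the filter of a mean above 10 counts, and 8 had a mean above 50 counts. Reads shared by several transcripts of a gene seem not to have been counted, which limits the genes with more than 1 transcript. HES6 (chr2:239146908-239149303 of GRCh37, minus strand) had 0 counts on all 3 of its transcripts in all 12 samples, which was therefore read as not measured and not as absent. HEY1, with 3 transcripts, had 7 to 21 counts and DLL3, with 2 transcripts, 64 to 102 counts. NOTCH2 also has 2 transcripts, of which NM_024408 held 5851 to 9523 counts. NOTCH1, NOTCH3, DLL1, JAG1, HES1 and HES5 have 1 transcript each, and levels were compared between genes only among these 6.

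HES1 had the highest level per transcript length in each of the 12 samples, with 154.5 to 218 CPM per kb (mean 183, SD 26.5, n = 12). NOTCH3 came next in all 12 samples (mean 97.9 CPM per kb, SD 3.54), and of the 7 members with at least 100 counts on average it had the smallest range of group means, 0.12 on the log2 scale. DLL1 (mean 72.6 CPM per kb, SD 5.78), HES5 (70.7, SD 5.40) and JAG1 (65.2, SD 6.75) followed closely, and NOTCH1 had 53.6 CPM per kb (SD 4.90). The order among these neighbours was not the same everywhere: DLL1 was above HES5 in 9 of 12 samples, HES5 above JAG1 in 10 and JAG1 above NOTCH1 in 10. In miR-10b cultures with doxycycline, NOTCH1 had 60.3 CPM per kb (SD 1.66, n = 3) and JAG1 57.5 (SD 1.75, n = 3).

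**Figure D1:**
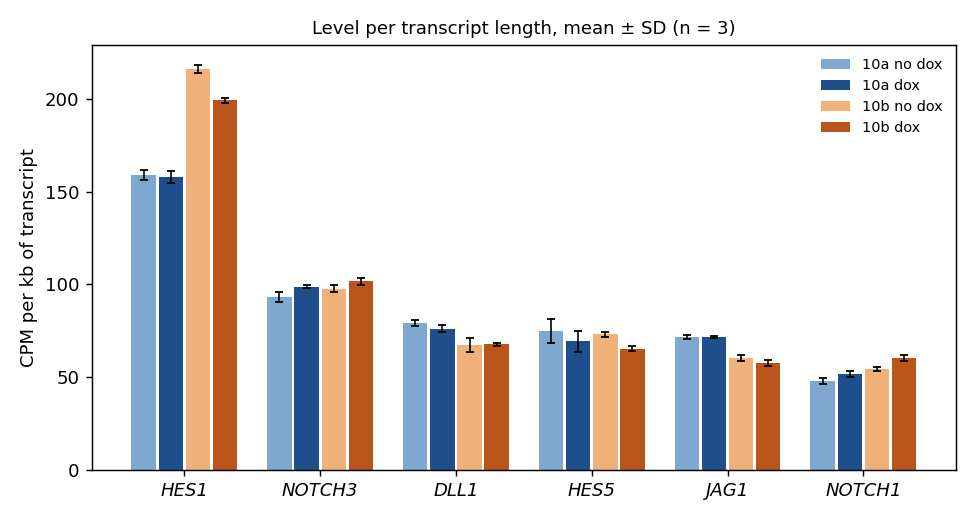
Level of the 6 Notch genes with 1 transcript, as CPM per kb of transcript (y axis, from 0), in the 4 groups; bars are means and error bars SD (n = 3). HES1 stands above NOTCH3 in every group, and the 4 other genes lie close together with NOTCH1 lowest in all groups but miR-10b with doxycycline.

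To ask whether induction of miR-10a or miR-10b changed the RNA of these genes, doxycycline and control samples were compared for each vector over 11451 genes with the quasi-likelihood test of edgeR and Benjamini-Hochberg adjustment. The receptors NOTCH1 and NOTCH2 were each about 10% higher with doxycycline over both vectors, NOTCH3 was higher by 4.93%, and the effector HES5 fell by 9.13%. HES1 was lower with doxycycline in the miR-10b cultures, whereas the ligands DLL1, DLL3 and JAG1 did not pass the test in either vector. With miR-10a, 1 of the 9 tested genes was called, that is, had an adjusted p under 0.05 (NOTCH2), against 1.21% of all tested genes. With miR-10b, 4 passed, 2 higher and 2 lower, against 15.3% of all tested genes. In the average of both vectors 4 passed, against 13.9%: 3 were higher, against 7.67% of all tested genes in that direction, and 1 was lower, against 6.22%. With TMM scaling or DESeq2 the call of NOTCH3 was lost and one of HES1 gained, which gave 2 higher and 2 lower, and the split over all tested genes moved from 878 higher and 712 lower to 665 and 852 with TMM and to 464 and 743 with DESeq2. Without doxycycline replicate 2 of miR-10b, these counts were 2 with miR-10a, 4 with miR-10b and 4 in the average. The 9 genes had a median log2 fold change of -0.0021 with miR-10a and of 0.020 with miR-10b, against 0.010 and 0.021 over all tested genes. In the average, the log2 fold changes of the 4 called genes were between 0.070 and 0.14 in size, and the median size over all called genes was 0.15. In these cultures, fewer cells of a type and less RNA per cell cannot be told apart.

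NOTCH2 (NM_024408, chr1:120454176-120643366 on the minus strand, GRCh37) encodes one of the receptors of neural progenitors. In miR-10a cultures it had 488, 512 and 486 CPM in the controls and 546, 541 and 555 CPM with doxycycline. In miR-10b cultures it had 699, 705 and 697.5 CPM in the controls and 742, 799 and 779 CPM with doxycycline. With either vector every doxycycline sample was above every control sample (exact permutation test, two-sided, p = 0.1, the smallest that 3 against 3 samples allow). Such a separation was seen for 3 of the 9 genes with miR-10a and 4 with miR-10b, and for 18.2% and 28.7% of all tested genes. The log2 fold change was 0.14 with miR-10a (SE 0.032, adjusted p = 0.0099) and 0.14 with miR-10b (SE 0.031, adjusted p = 0.0012), and 0.14 in the average (SE 0.022, adjusted p = 1.4e-05). The call with miR-10a was lost without control replicate 1 or 3 or doxycycline replicate 1 or 3 of that vector (adjusted p 0.06 to 0.1). Reads of NOTCH2 can be split with the partial copy NOTCH2NL, so that its value is uncertain. NOTCH2NL, named after its values were seen, had 79.8 and 86.6 CPM in miR-10a cultures without and with doxycycline and 104 and 121 CPM in miR-10b cultures, and passed the test with miR-10b (log2 fold change 0.22, SE 0.046, adjusted p = 0.00059).

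NOTCH1 (NM_017617, chr9:139388885-139440500, minus strand) encodes the founding member of the receptor family. Its level was 442, 460.5 and 432 CPM in miR-10a controls and 498, 466 and 479 CPM with doxycycline. In miR-10b cultures it was 513, 496 and 506 CPM in the controls and 558, 577 and 547 CPM with doxycycline. Doxycycline samples lay above the controls with no overlap in both vectors, although the gap in the miR-10a cultures was narrow. The log2 fold change was 0.11 with miR-10a (SE 0.033, adjusted p = 0.095) and 0.15 with miR-10b (SE 0.033, adjusted p = 0.0011), and in the average it was 0.13 (SE 0.023, adjusted p = 9.9e-05). Without replicate 2 of the miR-10b doxycycline group, whose spread enters the common fit, NOTCH1 passed also with miR-10a (adjusted p = 0.02), and its value with miR-10b was 0.13 (adjusted p = 0.0029).

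NOTCH3 (NM_000435, chr19:15269849-15311806, minus strand), which had a higher level per length than NOTCH1, had 760.2, 767.5 and 730.0 CPM in miR-10a controls and 793, 794 and 806 CPM with doxycycline. In miR-10b cultures it had 808, 776 and 783 CPM in the controls and 808, 836 and 816 CPM with doxycycline. The groups were apart with miR-10a and overlapped with miR-10b. It passed only in the average (log2 fold change 0.070, SE 0.021, adjusted p = 0.022) and not with miR-10a (0.084, SE 0.030, adjusted p = 0.22) or miR-10b (0.055, SE 0.030, adjusted p = 0.23). This call was lost with TMM scaling, which uses a trimmed mean of the genes' ratios (0.057, adjusted p = 0.066), with DESeq2 (0.054, adjusted p = 0.059) and without 1 of 4 libraries: control replicate 3 or doxycycline replicate 3 of miR-10a, or control replicate 2 or 3 of miR-10b (adjusted p 0.051 to 0.09). NOTCH4, the remaining receptor, had group means of 11.7 to 13.4 CPM and log2 fold changes of -0.096 with miR-10a (SE 0.11, adjusted p = 0.82) and -0.11 with miR-10b (SE 0.11, adjusted p = 0.55).

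**Figure D2:**
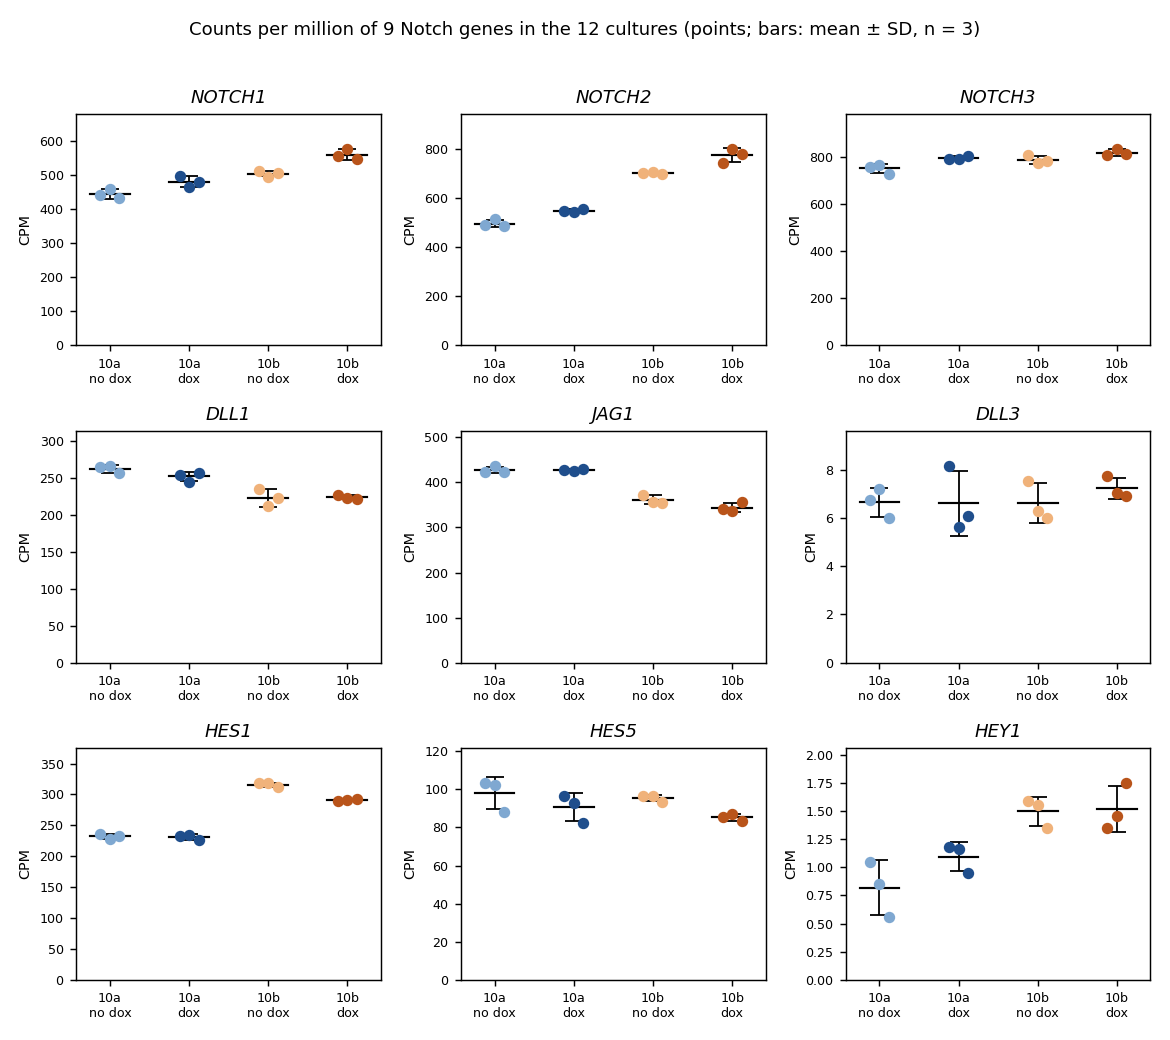
CPM of 9 Notch genes (y axes, each from 0) in the 12 cultures by vector and doxycycline; points are samples, lines the mean and error bars SD (n = 3). The 3 receptors are higher with doxycycline, with an overlap only for NOTCH3 in miR-10b cultures, HES1 stands higher in all miR-10b samples than in all miR-10a samples, and DLL1 and JAG1 stand lower.

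Of the 3 ligands, DLL1 and JAG1 had the most counts. DLL1 (NM_005618, chr6:170591294-170615653, minus strand), the Delta-like ligand of newborn neurons, had 265, 266 and 257 CPM in miR-10a controls and 254, 245 and 257 CPM with doxycycline. With the miR-10b vector it had 235.5, 211.5 and 222.5 CPM in the controls and 226.5, 223.5 and 221 CPM with doxycycline. The values of the 2 treatments overlapped with each vector, and the log2 fold change was -0.060 with miR-10a (SE 0.037, adjusted p = 0.58) and 0.0043 with miR-10b (SE 0.037, adjusted p = 0.96). DLL1 overlaps exons of FAM120B on the other strand, and the sources used here do not say whether counting used the strand. FAM120B had 12.2 to 14.3 CPM as group means.

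JAG1 (NM_000214, chr20:10618332-10654647, minus strand), a Jagged ligand that is found in ventral and floor plate territories of the neural tube, had 424, 436 and 424 CPM in miR-10a controls and 428, 425 and 430.2 CPM with doxycycline. The miR-10b cultures had 373, 356 and 355 CPM in the controls and 340.3, 336 and 356 CPM with doxycycline, and the groups overlapped. Exons of JAG1 also overlap an unnamed gene on the other strand. The log2 fold change was -0.0021 with miR-10a (SE 0.032, adjusted p = 0.99) and -0.070 with miR-10b (SE 0.033, adjusted p = 0.15). DLL3 (NM_016941, chr19:39989535-39999121, plus strand), a divergent ligand that acts within the cell that makes it, had 5.63 to 8.15 CPM over the 12 samples with overlapping groups. At 64 to 102 counts a change of the size seen for the receptors was not detectable, since the SE of its log2 fold change was 0.14 with either vector.

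HES1 and HES5 are the pathway outputs best known from neural progenitors. HES1 (NM_005524, chr3:193853937-193856521, plus strand) had 236, 228 and 233 CPM in miR-10a controls and 233, 235 and 226 CPM with doxycycline, with values that overlapped. The miR-10b cultures had 318, 318 and 312 CPM in the controls and 290.1, 290.3 and 293 CPM with doxycycline, with no overlap. The log2 fold change was -0.12 with miR-10b (SE 0.032, adjusted p = 0.0096) and -0.0067 with miR-10a (SE 0.034, adjusted p = 0.97). The fall with miR-10b passed the test under every alternative tried. The average over both vectors did not pass (-0.062, SE 0.023, adjusted p = 0.071) but did so with TMM scaling (-0.074, adjusted p = 0.028) and with DESeq2 (-0.078, adjusted p = 0.017).

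HES5 (NM_001010926, chr1:2460184-2461702, minus strand) had 103, 102.5 and 88.3 CPM in miR-10a controls and 96.6, 92.8 and 82.4 CPM with doxycycline. With the miR-10b vector it had 96.6, 96.45 and 93.5 CPM in the controls and 85.6, 86.8 and 83.4 CPM with doxycycline. The miR-10b groups did not overlap and were tight, whereas the miR-10a samples were spread widely in both groups (SD 8.40 and 7.36 CPM). The log2 fold change was -0.16 with miR-10b (SE 0.054, adjusted p = 0.033), -0.11 with miR-10a (SE 0.053, adjusted p = 0.42) and -0.14 in the average (SE 0.038, adjusted p = 0.011). The call with miR-10b was lost without any one of its control replicates or without doxycycline replicate 1 or 3 (adjusted p 0.054 to 0.099), and that of the average without control replicate 1 (adjusted p = 0.051) or doxycycline replicate 3 (adjusted p = 0.058) of miR-10a. HEY1 (NM_001282851), an effector active in vascular and neural cells, had 13, 12 and 7 counts in miR-10a controls, 13, 14 and 10 with doxycycline, 20, 21 and 18 in miR-10b controls and 16, 17 and 21 with doxycycline. Its doxycycline and control samples overlapped with either vector, and its log2 fold change had an SE of 0.32 with miR-10a and of 0.25 with miR-10b.

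To ask whether the vectors differed in their effect, the difference of the doxycycline effects (miR-10b minus miR-10a) was tested as an interaction. None of the 9 genes passed with edgeR's quasi-likelihood test, against 1.96% of all tested genes. DESeq2 also called none, but gave no adjusted p for HEY1 and DLL3. Only HES1 had an unadjusted p under 0.05 (1 gene), with a log2 difference of -0.11 (SE 0.046, adjusted p = 0.26). The difference was 0.038 for NOTCH1 (SE 0.047), -0.0022 for NOTCH2 (SE 0.045), -0.028 for NOTCH3 (SE 0.042) and -0.051 for HES5 (SE 0.076). The fall of HES1 and HES5 in miR-10b cultures was therefore not shown to differ from the values in miR-10a cultures.

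The controls of the vectors were also compared with each other. Without doxycycline, NOTCH2 was higher by 41.5%, HES1 by 36.0% and NOTCH1 by 13.5% in miR-10b than in miR-10a cultures, whereas JAG1 (-15.7%) and DLL1 (-15.0%) were lower. With HEY1, 6 of the 9 genes passed the test, against 14.1% of all tested genes: 4 were higher, against 7.41%, and 2 were lower, against 6.72%. Of the 9 genes, 7 had no overlap between the groups (30.1% of all tested genes). These are the same control samples as in the comparisons with doxycycline, and the vectors were carried by populations transduced separately, so that the vector and the population cannot be told apart.

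The per-sample levels given above show the split for each gene. The log2 difference was 0.50 for NOTCH2 (SE 0.032, adjusted p = 3.9e-15) and 0.44 for HES1 (SE 0.032, adjusted p = 2.6e-13), with all 6 miR-10b samples above all 6 miR-10a samples for both. The difference was 0.18 for NOTCH1 (SE 0.033, adjusted p = 8.8e-05), -0.25 for JAG1 (SE 0.032, adjusted p = 3e-07) and -0.23 for DLL1 (SE 0.037, adjusted p = 7.5e-06). These 5 calls held under every alternative tried. NOTCH2NL differed in the same direction as NOTCH2 (0.38, SE 0.047, adjusted p = 1.2e-07). For HEY1 the value was 0.86 (SE 0.29, adjusted p = 0.038) from 7 to 13 against 18 to 21 counts, and the call was lost without a filter on low counts (adjusted p = 0.07) and without control replicate 2 or 3 of miR-10a or any 1 control replicate of miR-10b (adjusted p 0.052 to 0.21). NOTCH3 (0.068, SE 0.030, adjusted p = 0.13), HES5 (-0.039, SE 0.052, adjusted p = 0.72) and DLL3 (-0.016, SE 0.14, adjusted p = 0.96) did not pass. Markers of cell states differed between the controls as well. The summed level of 15 progenitor markers was 12530 to 12660 CPM in miR-10a and 14170 to 14190 CPM in miR-10b controls, that of 11 ventral MB and floor plate markers 1141 to 1160 and 1427 to 1447 CPM, and that of 6 pluripotency markers 1643 to 1721 and 1229 to 1258 CPM. Most of the pluripotency sum was LIN28A, with a mean of 1539 CPM in miR-10a and 1135 CPM in miR-10b controls. The progenitor markers went both ways: of 12 tested, 5 were higher in miR-10b controls and 2 lower, SOX1 (log2 difference -1.23, adjusted p = 1.5e-17) and SOX3 (-0.76, adjusted p = 1e-15). Without doxycycline replicate 2 of miR-10b, 3 were lower, ID3 being the added one. Their part in the differences of the Notch genes was not tested.

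**Figure D3:**
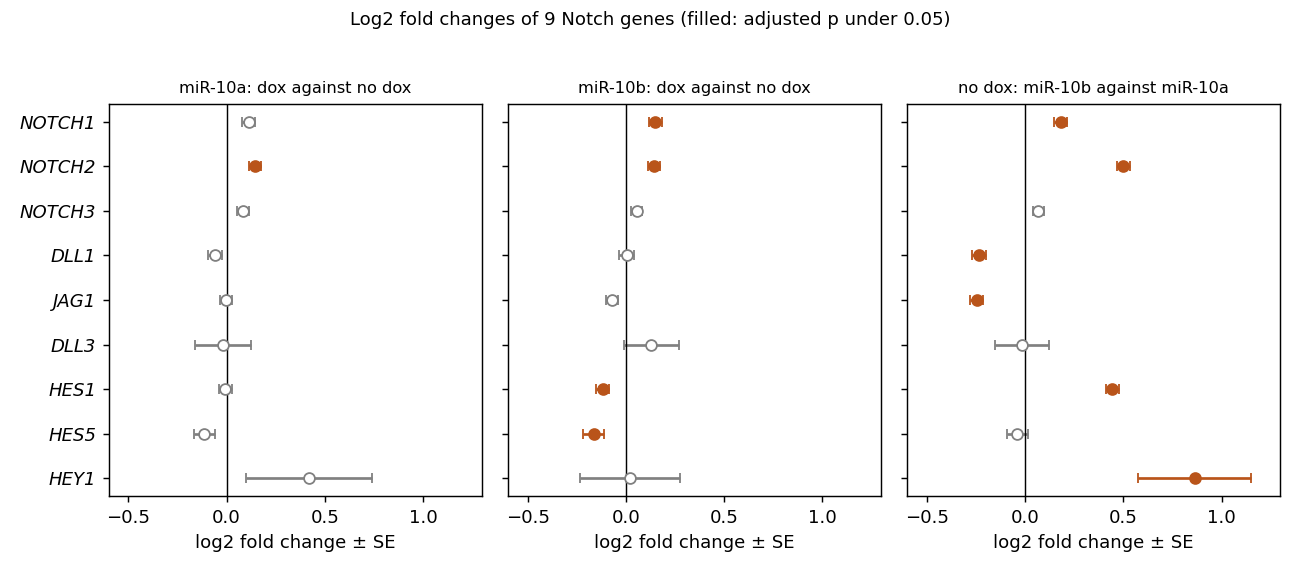
Log2 fold change with SE of 9 Notch genes (x axes) for doxycycline against control with miR-10a (left) and miR-10b (middle) and for miR-10b against miR-10a controls (right); filled points have an adjusted p under 0.05. Doxycycline values of all genes but the low-count HEY1 lie within 0.17 of 0, and the filled points at 0.50 and 0.44 on the right are NOTCH2 and HES1.

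The other genes of the pathway were taken from lists of ligands, receptors, effectors, cleavage enzymes, sugar-transferring enzymes, trafficking factors and nuclear cofactors. Of 58 such genes besides the 10 above, 37 were tested. In the average of both vectors 5 of them were higher with doxycycline and 4 lower, against 7.67% and 6.22% of all tested genes, and their median log2 fold change was 0.027 against 0.015 over all tested genes. With miR-10a 1 gene was lower and none higher, against 1.21% called of all tested genes, and with miR-10b 5 were higher and 5 lower, against 15.3%. In the difference of the vectors 2 were lower with miR-10b, DLL4 and POFUT1, against 1.96%. Without doxycycline replicate 2 of miR-10b, 2 genes were lower with miR-10a, 3 were higher and 5 lower with miR-10b, and POFUT1 alone was called in the difference of the vectors. Of the 37, 11 had a 7mer seed match in their 3′ UTR and none an 8mer, against 21.1% of tested genes with an 8mer or 7mer. Among the genes called in the average, POFUT1, which was lower, and HEYL, which was higher, each held a 7mer match.

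Among the effectors, HEYL, a HEY family member, moved opposite to HES5. It had 45.7 to 46.8 CPM in miR-10a controls, 51.3 to 53.1 CPM with doxycycline, 59.0 to 64.1 CPM in miR-10b controls and 70.8 to 75.3 CPM with doxycycline. Its groups did not overlap, and its log2 fold change was 0.22 in the average (SE 0.036, adjusted p = 3.6e-05) and 0.40 between the controls (SE 0.052, adjusted p = 2.5e-07). HEYL passed with miR-10b (adjusted p = 0.00016) but not with miR-10a (adjusted p = 0.12). NRARP, which is induced by Notch and promotes turnover of the receptor's intracellular domain, had 174 to 181 CPM in miR-10a controls and 159 to 175 CPM with doxycycline, and 149 to 156 and 129.5 to 139 CPM in miR-10b cultures. It fell by 0.14 on the log2 scale in the average (SE 0.029, adjusted p = 5e-04). NRARP passed with miR-10b (adjusted p = 0.0013) but not with miR-10a (adjusted p = 0.3). Of the 10 HES and HEY genes listed, 5 were tested.

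Among the ligands, DLL4, a Delta-like ligand of ventral interneuron progenitors and of endothelium, had 37.5 to 42.2 CPM in miR-10b controls and 29.3 to 31.7 CPM with doxycycline, a log2 fold change of -0.37 (SE 0.063, adjusted p = 4.4e-05). In miR-10a cultures its values overlapped (39.3 to 41.1 and 38.1 to 39.7 CPM, -0.037, SE 0.061, adjusted p = 0.89). The summed level of the 7 endothelial markers was 8.67 to 10.4 CPM in miR-10b controls and 7.23 to 8.24 CPM with doxycycline, and PECAM1 had 1 to 4 counts per sample. The endothelial markers differed in sign with miR-10b: the log2 fold change was -0.75 for ESAM (adjusted p = 0.0032), -0.36 for CDH5 (adjusted p = 0.18) and 0.62 for KDR (adjusted p = 0.16), the 3 that were tested. Their part in the value of DLL4 was not tested. DLK1, a non-canonical ligand, had 321 to 381 CPM in miR-10a controls and 260 to 273 CPM with doxycycline. Its log2 fold change was -0.39 with miR-10a (SE 0.049, adjusted p = 3.3e-06) and -0.16 with miR-10b (SE 0.053, adjusted p = 0.038). In miR-10b cultures its values overlapped, with 172 to 192 CPM in the controls and 151 to 176 CPM with doxycycline. DNER, a neuronal ligand, rose in the average (0.13, SE 0.037, adjusted p = 0.019) but passed with neither vector alone (adjusted p 0.22 with miR-10a and 0.19 with miR-10b).

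Among the modifying and nuclear factors, POFUT1 had the largest fall in the average of the pathway genes past the threshold. This enzyme adds the fucose that Notch receptors need for ligand binding. It had 130.5 to 133 CPM in miR-10b controls and 94.0 to 97.5 CPM with doxycycline (-0.46, SE 0.043, adjusted p = 4.1e-10), and 114 to 127 and 106 to 112 CPM in miR-10a cultures (-0.16, SE 0.043, adjusted p = 0.06). Without doxycycline replicate 2 of miR-10b, the value of POFUT1 with miR-10a was -0.16 and passed (adjusted p = 0.018). NEURL1, a ubiquitin ligase for ligands, rose in the average (0.20, SE 0.055, adjusted p = 0.014), as did the coactivator MAML3 (0.076, SE 0.025, adjusted p = 0.039) and the corepressor subunit HDAC1 (0.072, SE 0.024, adjusted p = 0.04). NEURL1 and MAML3 passed with miR-10b (adjusted p 0.034 and 0.039) but not with miR-10a (adjusted p 0.47 and 0.68). HDAC1 passed with neither vector alone (adjusted p 0.65 with miR-10a and 0.053 with miR-10b). These calls were not examined with TMM scaling or DESeq2. Of the 9 genes listed for receptor cleavage, 3 were tested. ADAM10, with 4433 to 5569 counts, had a log2 fold change of 0.065 with miR-10b (SE 0.032, adjusted p = 0.18). ADAM17, with 1960 to 2656 counts, had one of -0.0040 with miR-10b (SE 0.039, adjusted p = 0.97). The gamma-secretase genes were hardly measured, and PSEN2 and APH1A were at 0 counts. Without doxycycline replicate 2 of miR-10b, MAML3 did not pass in the average (0.062, adjusted p = 0.074) and ADAM10 did (0.065, adjusted p = 0.028). MAML3 then did not pass with miR-10b either (adjusted p = 0.16).

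**Figure D4:**
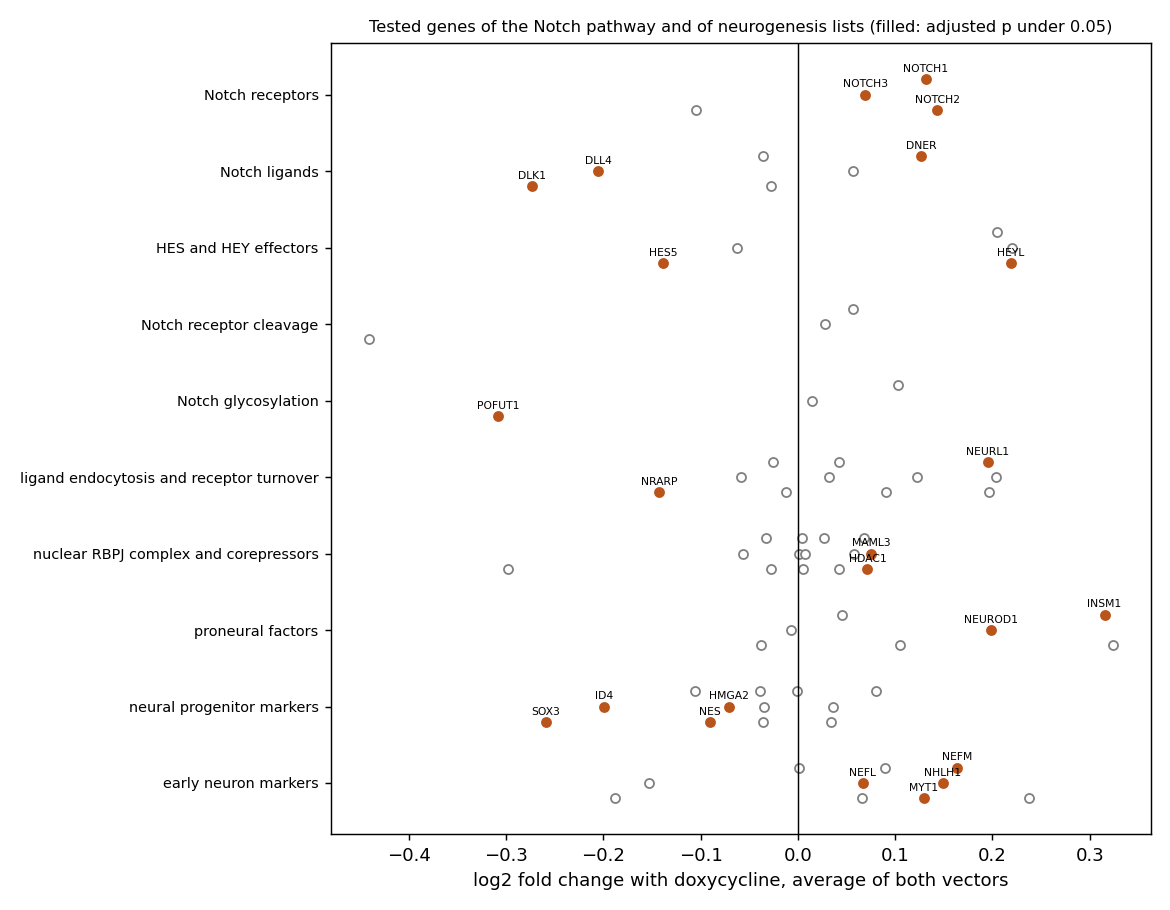
Log2 fold change with doxycycline in the average of both vectors (x axis) of tested genes of 7 Notch lists and 3 lists of neurogenesis; filled and named points have an adjusted p under 0.05, and the height within a list only separates points. NOTCH1, NOTCH2 and NOTCH3 lie to the right of 0, HES5 to the left and HEYL to the right, and POFUT1 is the leftmost filled point.

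Proneural genes and markers of progenitors and neurons were read from the same fits. Of the proneural factors, INSM1 and NEUROD1 rose in the average. INSM1, a factor of neurons being born, had 180.1 to 189 CPM in miR-10a controls and 223 to 229 CPM with doxycycline, and 180.5 to 198 and 241 to 243 CPM in miR-10b cultures (0.32, SE 0.026, adjusted p = 2.2e-11). NEUROD1, which drives neuronal differentiation, had a log2 fold change of 0.20 (SE 0.043, adjusted p = 0.0012). It passed with miR-10b (adjusted p = 0.0057) but not with miR-10a (adjusted p = 0.26). NEUROG1 (-0.0068, adjusted p = 0.95) and NEUROG2 (-0.038, adjusted p = 0.58), proneural factors named after their values were seen, did not pass. Of 12 tested progenitor markers, SOX3, ID4, NES and HMGA2 fell in the average and none rose, with log2 fold changes of -0.26, -0.20, -0.090 and -0.071 (adjusted p 2.6e-08 to 0.031), against 6.22% lower of all tested genes. Of 10 tested markers of early neurons, NEFM, NHLH1, MYT1 and NEFL rose and none fell, with log2 fold changes of 0.16, 0.15, 0.13 and 0.067 (adjusted p 2.6e-05 to 0.034), against 7.67% higher of all tested genes. Without doxycycline replicate 2 of miR-10b, HMGA2 did not pass (-0.052, adjusted p = 0.062), SOX2 was called lower (-0.053, adjusted p = 0.043), and so was ONECUT1 of the early neuron markers (-0.23, adjusted p = 0.013). With miR-10a alone, 1 of the 12 progenitor markers, ID4, was called, and none of the 10 early neuron markers. The log2 fold change with miR-10a was -0.022 for NEFL (adjusted p = 0.86) and 0.024 for NEFM (adjusted p = 0.88). NHLH1 and MYT1 passed with neither vector alone.

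In miR-10b cultures the summed progenitor markers were 14170 to 14190 CPM in the controls and 13380 to 13400 CPM with doxycycline, and the early neuron markers 1819 to 1955 and 2119 to 2212 CPM. Most of this progenitor sum was NES (means of 5160 and 4696 CPM without and with doxycycline) and VIM (4842 and 4857 CPM). In miR-10a cultures the summed progenitor markers were 12530 to 12660 and 12080 to 12380 CPM, and the early neuron markers overlapped (1734 to 1842 and 1742 to 1783 CPM). The part of these markers in the changes of the Notch genes was not tested.

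For the 3 members whose group means differed most, the genes with the most similar pattern over the 12 samples were found by the mean absolute difference of z-scored log2 CPM over 6975 genes with at least 100 counts on average. Nearest to NOTCH2 (group means over a range of 0.64 on the log2 scale) were IRF2BPL (0.089), BMP7 (0.099) and PLCL1 (0.10). Nearest to HES1 (range 0.45) were CRIM1 (0.11), CPE (0.11) and OLFM2 (0.12), which were highest in the miR-10b controls as HES1 was. Nearest to NOTCH1 (range 0.33) were WFIKKN1 (0.089), MLLT1 (0.14) and LAMB2 (0.14). The 12 points share the 4 groups and the library totals, so that these distances describe the samples only.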

How the data were processed

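The authors sequenced RNA of each culture as single-end reads of 50 bases, mapped them to hg19 and deposited raw counts per RefSeq transcript, without normalization. The submitters' processing notes list STAR, Subread and featureCounts. Their options, strand setting included, are not given in the sources used here. The methods name RNeasy extraction and NuGEN Ovation libraries, the labels miRNeasy and Illumina kits. Each file held 51799 rows for 48101 transcripts, and 3698 repeated rows were dropped. Genes with 1 transcript held 92.84% of the counts. Samples were grouped by the vector and treatment in the labels.

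The quasi-likelihood test of edgeR 4.0.16 (R 4.3.3) was run on 11451 genes whose mean over the 12 samples exceeded 10 counts. Library sizes were the total counts, and the 4 group means were in 1 fit, with Benjamini-Hochberg adjustment over all tested genes at 0.05. SEs were derived from the fold change and the F statistic. For single genes, the CPM values of 3 and 3 samples were compared by an exact permutation test. The code was tested on simulated data. Alternatives were TMM factors, DESeq2 1.42.0, no filter or a mean above 50 counts, the replicate number as a block, counts summed over transcripts, fits of 1 vector and leaving out each sample. Tables and figures were made with Python 3.11.15, pandas 2.3.3 and matplotlib 3.10.9.

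The genes, lists and comparisons were chosen with earlier results of these data known. All 10 genes are named, and of the lists at most 4 genes per direction past the threshold. The result of 1 gene of the list of proneural factors is not reported here, so no counts are given for that list.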

Additional observations from a re-analysis of the deposited data

Results flagged for a closer look

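None of the 9 tested Notch genes had an effect of doxycycline that differed between the vectors by the interaction test (miR-10b minus miR-10a, edgeR's quasi-likelihood test, adjusted p under 0.05). Of the 82 tested genes on the lists examined beside them, 7 did, against 1.96% of all tested genes. The effect was lower with miR-10b for the ligand DLL4 (log2 difference -0.34, adjusted p = 0.035, and -0.31, adjusted p = 0.058, without doxycycline replicate 2 of miR-10b), the fucosyltransferase POFUT1 (-0.30, adjusted p = 0.0028), the progenitor factor SOX3 (-0.28, adjusted p = 0.017) and the RNA-binding protein LIN28A (-0.19, adjusted p = 0.0041). It was higher with miR-10b for the neurofilament genes NEFL (0.18, adjusted p = 0.019) and NEFM (0.28, adjusted p = 0.0016) and for the transcription factor ONECUT2 (0.26, adjusted p = 0.045).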

How the results depend on the processing

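Of 816 values of the 45 gene and comparison results under alternative settings, 765 kept their direction and their side of the threshold, 23 lost and 5 gained a call, and 23 changed sign, none of them past the threshold in either fit. For DLL1 with miR-10b the log2 fold change turned to -0.0122 with TMM and to -0.0165 with DESeq2. The other changes of sign came from leaving out 1 sample, which gave -0.193 to 0.0954 for DLL3, -0.0092 to 0.0117 for JAG1 and -0.0199 to 0.0096 for HES1 with miR-10a, -0.0332 to 0.0442 for DLL1 and -0.0946 to 0.0988 for HEY1 with miR-10b, -0.0315 to 0.1128 for DLL3 in the average, -0.0274 to 0.0268 for NOTCH2 and -0.1125 to 0.0174 for HES5 in the difference of the vectors, and -0.1167 to 0.0493 for DLL3 between the controls. Leaving out doxycycline replicate 2 of miR-10b was chosen after seeing the data for the other genes of the lists. Calls of these other genes were not examined with TMM scaling or DESeq2. The number of Notch genes past the threshold with miR-10a was 1, rose to 2 in the fit of the 6 miR-10a samples alone, where NOTCH1 also passed (adjusted p = 0.025), and was 0 to 2 when 1 sample was left out. When 1 sample was left out, this number was 2 to 4 for the average of both vectors, 3 to 4 with miR-10b and 5 to 6 between the controls. For the difference of the vectors it was 0 throughout. In the average with a filter of 50 counts, HES1 passed (-0.062, adjusted p = 0.05) beside the 4 genes called in the main fit. The fit with the replicate number as a replicate block gave 1 gene with miR-10a and 4 with miR-10b, 4 in the average, 0 in the difference and 6 between the controls. The deviations of same-numbered samples of a vector correlated by -0.032 to 0.0082, against -0.022 to 0.039 for other pairs. These values gave no sign of pairing by number but cannot exclude it. The block moved the calls over all genes from 139 to 166 with miR-10a and from 1590 to 1680 in the average. DESeq2 gave no adjusted p for HEY1 in any comparison, and none for DLL3 with miR-10a and in the difference of the vectors. Over all genes, the split of the average was 878 higher and 712 lower with total counts, 665 and 852 with TMM and 464 and 743 with DESeq2. That with miR-10b was 937 and 819, 766 and 963, and 498 and 808. No scaling moved the median of all genes by more than 0.1. The fit of the miR-10a samples alone called 272 genes against 139, and without a filter the difference of the vectors had 343 genes against 224. The depth limits HEY1 and DLL3, and the way reads were assigned to transcripts limits HES6, HEY1, DLL3 and NOTCH2.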
